A study of Mus musculus with 12 samples.

Results

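The 7 genes described here handle ketone bodies and the other monocarboxylates that share their carriers: Bdh1, Oxct1 and Acat1, which encode the mitochondrial enzymes that turn beta-hydroxybutyrate and acetoacetate into acetyl-CoA, Slc16a1, Slc16a7 and Slc16a3, which encode the monocarboxylate transporters MCT1, MCT2 and MCT4, and Bsg, which encodes basigin, the membrane protein that brings MCT1 and MCT4 to the cell surface. They were chosen by name for these roles, and all 7 were found once among the 54752 genes of the deposited count table. RNA-seq of cerebellar cortex was done on 12 male wild-type F1 hybrid C57BL6J/FVB mice of 12 weeks, with 4 mice fed ad libitum (AL), 4 on dietary restriction (DR) and 4 on a ketogenic diet (KD). DR was a daily portion below free intake, reached in steps. Tissue of the AL and DR groups was collected soon after lights off, per the study's methods. The usual portion had been withheld from the DR group that day. The composition and length of the KD are not given in the sources used here, nor is when the KD mice were killed. Each library was made from 1 mouse and held between 31712084 and 40798644 counts in genes.

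Ketone bodies are made mainly in liver mitochondria from fatty acids when carbohydrate is short, and they reach the brain through MCT1 in the vessel wall. Neurons take them up chiefly through MCT2, whereas MCT4 is known as an exporter of lactate from glycolytic cells. Inside the mitochondrion Bdh1 oxidises beta-hydroxybutyrate to acetoacetate, Oxct1 (SCOT) moves CoA from succinyl-CoA onto acetoacetate and Acat1 splits the product into acetyl-CoA for the citric acid cycle.

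Markers of the main cell types of cerebellar cortex were abundant. Cbln3, a granule cell gene, averaged 1573 CPM (a gene's count as a share of the library's scaled total) and Itpr1, abundant in Purkinje cells, averaged 4147 CPM. Slc17a6, which marks glutamatergic neurons of the cerebellar nuclei that were cut away, was at 0.256 CPM, and Slc6a5, which Golgi cells of the cortex also make, was at 45.9 CPM. The 7 choroid plexus markers ranged from Folr1 at 0.0311 CPM to Otx2 at 12.7 CPM, and Ttr reached 7.95 CPM in KD replicate 1.

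On GRCm38.p6 the counted genes of the carriers were Slc16a1 (ENSMUSG00000032902.1) at chr3:104638668-104658462 on the + strand, Slc16a7 (ENSMUSG00000020102.15) at chr10:125219270-125389465 on the - strand and Slc16a3 (ENSMUSG00000025161.16) at chr11:120948480-120960868 on the + strand. The partner of MCT1 and MCT4 was Bsg (ENSMUSG00000023175.15) at chr10:79704491-79711969 on the + strand. The enzymes were Bdh1 (ENSMUSG00000046598.15) at chr16:31422280-31458901 on the + strand, Oxct1 (ENSMUSG00000022186.14) at chr15:4026383-4155344 on the + strand and Acat1 (ENSMUSG00000032047.5) at chr9:53580522-53610382 on the - strand. Counts were summed over the exons of each gene.

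The 2 genes on which the results below turn are Slc16a1 and Oxct1, and the bases just before the start of each are shown as its promoter stretch. Both stretches come from the RefSeq promoter table for GRCm38.p6, which held 4 of the 7 genes. The Slc16a1 stretch is chr3:104638414-104638663 on the + strand, the 250 bases before the RefSeq start. The Oxct1 stretch is chr15:4026178-4026382 on the + strand, 205 bases that end where the counted gene begins. Capitals mark a match, on either strand, to 1 of 4 motifs searched: AGGTCA, bound by nuclear receptors, the E-box CACGTG, the GC box GGGCGG and the CCAAT box.
Slc16a1: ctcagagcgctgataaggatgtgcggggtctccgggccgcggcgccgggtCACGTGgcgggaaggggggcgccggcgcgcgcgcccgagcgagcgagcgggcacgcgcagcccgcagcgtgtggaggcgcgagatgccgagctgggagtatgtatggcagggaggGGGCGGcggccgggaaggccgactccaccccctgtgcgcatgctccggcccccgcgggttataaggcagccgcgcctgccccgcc
Oxct1: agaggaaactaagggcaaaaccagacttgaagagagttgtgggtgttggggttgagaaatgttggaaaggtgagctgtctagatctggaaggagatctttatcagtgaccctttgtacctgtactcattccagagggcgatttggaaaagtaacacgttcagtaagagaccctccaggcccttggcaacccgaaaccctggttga
The Slc16a1 stretch was 76.4% G or C, against a median of 52.4% over 32851 promoter windows of the same length, and held CACGTG at 200 bases and GGGCGG at 85 bases before the start. CACGTG occurred in 6.02% of those windows and GGGCGG in 32.7%. The Oxct1 stretch was 47.8% G or C (median of windows of its length 51.7%) and matched none of the 4 motifs, which occurred in 11.7% (AGGTCA), 4.48% (CACGTG), 25.6% (GGGCGG) and 29.2% (CCAAT) of windows of that length. These matches are letters in a window, and binding was not measured.

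On the common scale of CPM per kb of exonic length, the order of the 7 genes was the same in every library. Bsg stood highest with a mean of 108 CPM per kb over the 12 libraries, followed by Oxct1 with 60.1, Acat1 with 16.1, Bdh1 with 11.5, Slc16a1 with 7.42, Slc16a7 with 2.34 and Slc16a3 with 0.118 CPM per kb. The 3 enzymes of ketone body use were thus unequal in RNA level, the CoA transferase Oxct1 being above both the dehydrogenase and the thiolase. No neighbours in this order overlapped on this scale: the highest library of Bdh1 was at 12.1 CPM per kb and the lowest of Acat1 at 14.5, and the highest of Slc16a1 at 8.54 and the lowest of Bdh1 at 9.77. Per kb of coding length Slc16a1 (18.7 to 25.6 CPM per kb) overlapped Slc16a7 (17.4 to 20.9), and Bsg (142 to 194) overlapped Oxct1 (128 to 155). Of the summed level per kb of the 3 carriers, Slc16a1 made up 73.0% ± 1.80 in AL, 75.1% ± 3.11 in DR and 76.8% ± 1.30 in KD (SD, n = 4 each). These shares were not tested and depend on the length used: per kb of coding length, chosen after seeing the data, they were 50.5%, 53.4% and 55.5%, with Slc16a7 at 48.5%, 45.3% and 43.7%. Slc16a3 had only 15 to 38 counts per library.

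**Figure D1:**
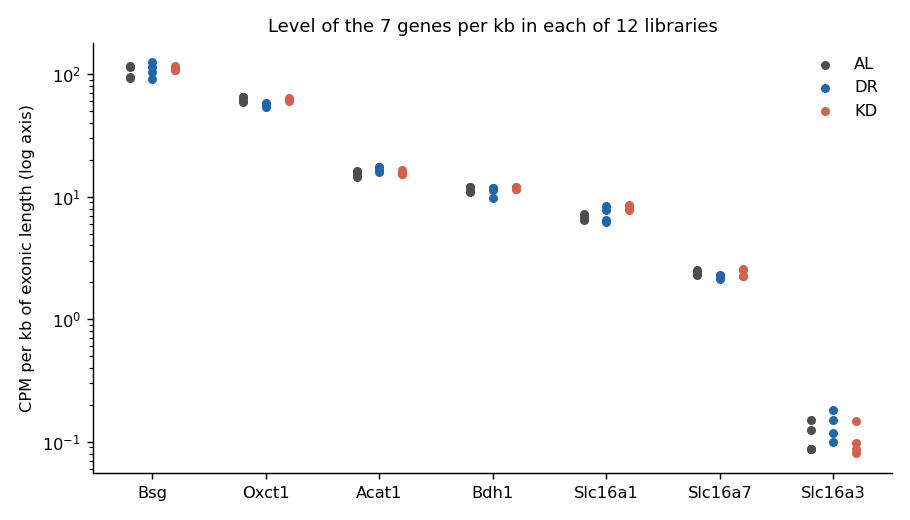
Level of each of the 7 genes in CPM per kb of exonic length (vertical log axis), 1 point per library, coloured by diet. Bsg is highest and Slc16a3 lowest in all 12 libraries, and the points of neighbouring genes do not overlap.

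Between diets, differences in the 7 genes were small: Slc16a1 stood highest on KD and Oxct1 lowest on DR, and the other 5 overlapped between every pair of diets. By the quasi-likelihood test of edgeR with a Benjamini-Hochberg adjusted p under 0.05, 0 of the 7 were called in DR against AL, where 3.06% of 19052 genes tested were called (1.32% higher and 1.74% lower), and 2 had an unadjusted p under 0.05 (Oxct1 and Acat1) where 18% of all genes did. In KD against AL 0 of the 7 were called, as were 0% of 19036 genes (928 genes, 4.87%, had an unadjusted p under 0.05, and DESeq2 called 10). Of the 7, 1 had an unadjusted p under 0.05, Slc16a1. In KD against DR 1 was called, Oxct1, which was higher, where 4.94% of 19087 genes were called (2.43% higher and 2.51% lower), and 2 had an unadjusted p under 0.05 (Oxct1 and Slc16a1), as did 18.7% of all genes. In each comparison the 4 mice of one diet lay clear of the other in 1 of the 7 genes: Oxct1 in DR against AL (10.9% of all genes), Slc16a1 in KD against AL (2.95%) and Oxct1 in KD against DR (11.8%). The median absolute log2 difference of the 7 genes was 0.101 in DR against AL, 0.0362 in KD against AL and 0.0980 in KD against DR, and that of all genes was 0.101, 0.0597 and 0.0982. All 7 passed the filter on low counts in every comparison.

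**Figure D2:**
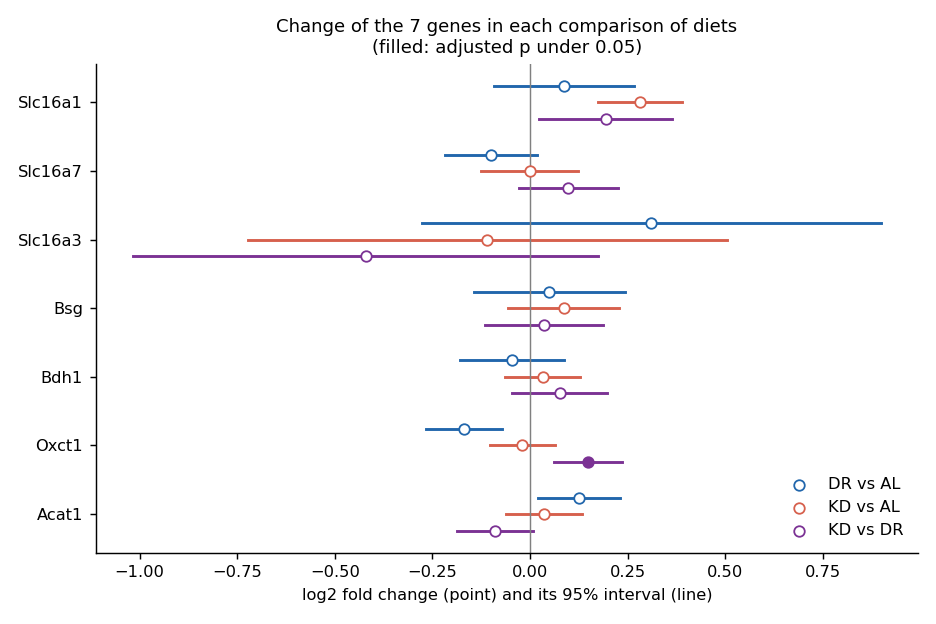
Log2 fold change (horizontal axis) of the 7 genes in each comparison of diets, with its 95% interval as a line; filled points have an adjusted p under 0.05. Oxct1 in KD against DR is the only filled point, and the intervals of Slc16a1 in both comparisons with KD, of Oxct1 in both comparisons with DR and of Acat1 in DR against AL lie wholly to one side of 0.

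Slc16a1, the carrier of the vessel wall and of glia, differed most between KD and AL. Its level was 32.1, 29.6, 29.8 and 28.8 CPM in the AL mice, 34.1, 37.4, 28.5 and 27.7 CPM in the DR mice and 36.4, 34.6, 37.2 and 37.8 CPM in the KD mice. All 4 KD mice lay above all 4 AL mice, whereas the DR mice split into a pair near KD level and a pair just below the lowest AL mouse. KD exceeded AL by 21.6%, a log2 difference of 0.28 (SE 0.0505, 95% interval 0.174 to 0.389), which ranked 3rd by p among 19036 genes tested but did not pass the quasi-likelihood test of edgeR (Benjamini-Hochberg adjusted p = 0.224). DESeq2 on the same counts called it (adjusted p = 0.0038), a fit of all 12 libraries together did not (adjusted p = 0.98), and leaving out any 1 library kept the log2 difference between 0.26 and 0.31 with adjusted p of 0.114 or more. Against DR the KD level was higher by 0.19 on the log2 scale (SE 0.0800, adjusted p = 0.197 by the same edgeR test), and without DR replicate 2 it was 0.28 (adjusted p = 0.0371). DR against AL gave 0.09 (SE 0.0839, adjusted p = 0.647), and between 0.00311 without DR replicate 2 and 0.15 without DR replicate 4.

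Endothelial markers were read beside Slc16a1 because MCT1 is dense in brain vessels. In the edgeR fit none of the 12 markers listed was called between KD and AL, and their median log2 difference was -0.000328. Their summed level was 418 to 445 CPM in the AL mice and 394 to 414 CPM in the KD mice. Of the 12, 6 were higher and 6 lower in KD. Among the higher, Cldn5 averaged 14.5 ± 3.62 CPM in AL and 17.3 ± 1.48 CPM in KD, Pecam1 14.3 ± 2.04 and 16.3 ± 1.41 CPM, Cdh5 10.8 ± 1.7 and 12.2 ± 1.14 CPM and Tek 11.6 ± 2.1 and 12.6 ± 0.694 CPM (SD, n = 4), with overlapping ranges and named after their values were seen. Among the lower, besides Slc2a1, were Slco1a4, Ly6c1, Itm2a, Abcb1a and Tie1, with Itm2a at 25.5 ± 2.1 CPM in AL and 24.7 ± 1.81 CPM in KD and Tie1 at 11.4 ± 0.53 and 11.4 ± 1.44 CPM. The most abundant of the 12, Slc2a1, the glucose carrier GLUT1, made up 36.2% of the sum and averaged 163 CPM in AL, 158 CPM in DR and 129 CPM in KD. Slc2a1 differed from AL in KD by -0.33 on the log2 scale (SE 0.0915), opposite in sign to Slc16a1, without passing the test (edgeR adjusted p = 0.924). Slc2a1 was called there in 1 of 14 alternatives, edgeR without a filter on low counts (adjusted p = 3.292e-09), and in KD against DR in 5 of 14. Without Slc2a1 the endothelial sum was 268 ± 12.7 CPM in AL and 274 ± 4.24 CPM in KD, ranges that overlapped. Over the 12 libraries Slc16a1 had a Pearson r of -0.70 (Spearman -0.64) with the endothelial sum that includes Slc2a1, given as a description. The r with the sum without Slc2a1 was not computed, so this r does not describe the other endothelial markers. The part of vessel content in the Slc16a1 difference was not tested. In bulk tissue, fewer cells of a type and less RNA per cell cannot be told apart.

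The neuronal carrier Slc16a7 lay between 25.3 and 30.3 CPM in all 12 mice. It averaged 28.3 ± 1.24 CPM in AL, 26.4 ± 0.817 CPM in DR and 28.2 ± 1.98 CPM in KD (SD, n = 4), and the diets overlapped. Its log2 difference was -0.10 in DR against AL (95% interval -0.218 to 0.0167) and -0.000999 in KD against AL (-0.126 to 0.124). Slc16a3, the MCT4 gene, ranged from 0.428 to 0.971 CPM. Its intervals were wide, at -0.724 to 0.506 on the log2 scale for KD against AL and -1.02 to 0.175 for KD against DR. A moderate difference was therefore not detectable at this depth.

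Bsg, the partner of MCT1 and MCT4, was spread more within diets than between them. It was at 208, 212, 168 and 171 CPM in AL, 207, 227, 166 and 187 CPM in DR and 204, 197, 195 and 210 CPM in KD. The AL mice fell into a high and a low pair, the DR mice spread more widely than the AL mice, and the KD mice were closest to each other, none above the highest AL mouse. The log2 difference from AL was 0.05 in DR (SE 0.0906, adjusted p = 0.830) and 0.09 in KD (SE 0.0667, adjusted p = 0.994), both from edgeR.

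**Figure D3:**
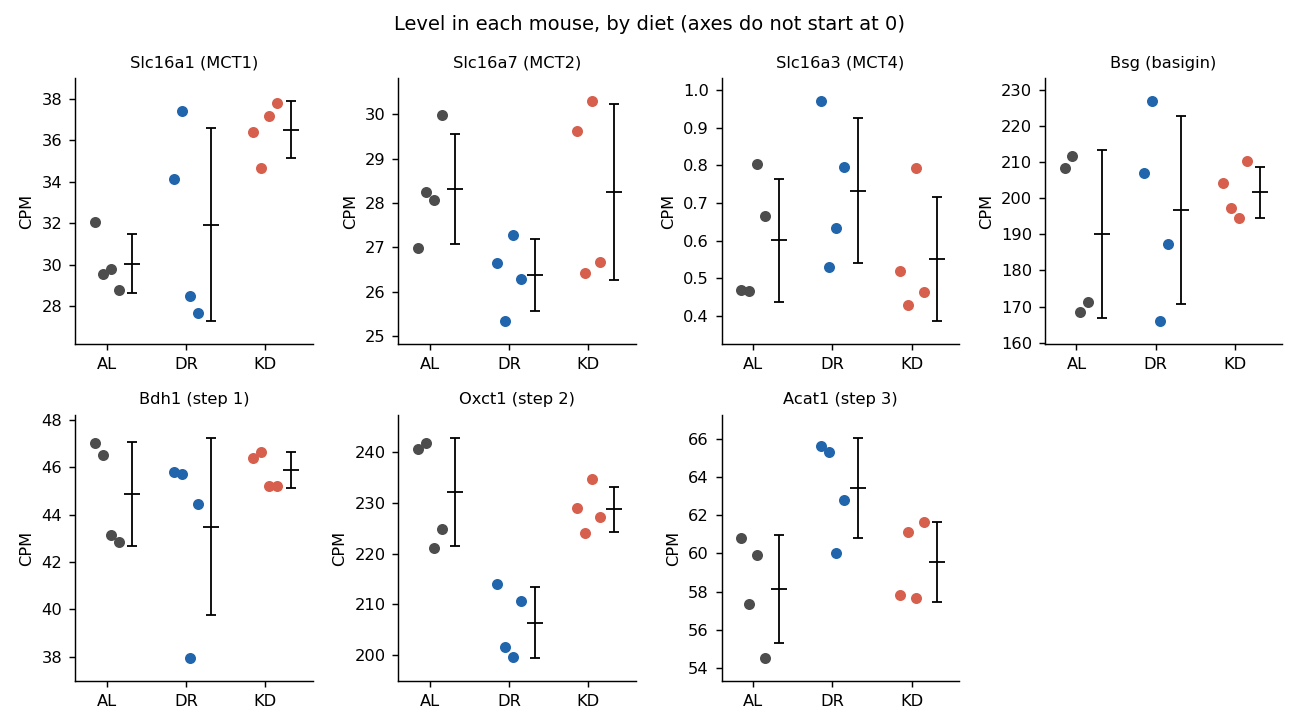
Level in CPM (vertical axes, which do not start at 0) in each of the 12 mice by diet for the 7 genes; points are mice, and the black bar is the mean ± SD of 4. Slc16a1 in KD (34.6 to 37.8 CPM) lies above AL (28.8 to 32.1 CPM), and Oxct1 in DR (199.6 to 214 CPM) lies below AL and KD (221 CPM or more).

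Among the enzymes of ketone body use, Oxct1 was lowest on DR. Its level was 241, 242, 221 and 225 CPM in AL, 214, 202, 199.6 and 211 CPM in DR and 229, 224, 235 and 227 CPM in KD. No DR mouse reached the lowest AL or KD mouse, and AL and KD overlapped. Oxct1 was higher in KD than in DR by 10.8%, a log2 difference of 0.15 (SE 0.0408, Benjamini-Hochberg adjusted p = 0.0480, edgeR). That call sat at the threshold: of the 8 fits that left out a library it held in 1, without DR replicate 1 (adjusted p = 0.0296), and was lost in the other 7, with adjusted p between 0.0600 and 0.142. Over all 14 alternatives the call held in 5, and it was also lost with library size scaling and without a filter on low counts. DR was below AL by 11.1% (log2 difference -0.17, SE 0.0455), just outside the threshold (adjusted p = 0.0592), and inside it with DESeq2 (adjusted p = 0.0105) or without AL replicate 3 (adjusted p = 0.0352). KD against AL gave -0.02 (95% interval -0.103 to 0.0637).

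Like Oxct1, the summed astrocyte and Bergmann glia markers and the summed Purkinje cell markers had their lowest mean on DR. So did the sums of oligodendrocyte, microglia and choroid plexus markers, with microglia at 62.8 CPM in AL, 59.4 in DR and 64.8 in KD. The sums of the other lists did not, though the endothelial sum without Slc2a1 did (268 CPM in AL, 250 in DR and 274 in KD). All 8 astrocyte and Bergmann glia markers were lower in DR than in AL, with 3 called (Aqp4, Hopx, Gja1), where 1.74% of all genes were called lower. Their sum was 2767 ± 58.0 CPM in AL, 2475 ± 33.9 CPM in DR and 2673 ± 51.6 CPM in KD (SD, n = 4). Slc1a3, a glutamate carrier, was 47.9% of that sum. All 5 Purkinje cell markers were also lower, with 1 called (Car8), and summed to 6606 ± 212 CPM in AL, 5732 ± 397 CPM in DR and 6476 ± 87.3 CPM in KD, Itpr1 being 66.1% of it. Over the 12 libraries the log2 level of Oxct1 had a Pearson r of 0.93 (Spearman 0.85) with the astrocyte sum and of 0.78 (Spearman 0.69) with the Purkinje sum, a description of points that share 3 diets and their scaling. No marker of either list was at 0 in all libraries. Their part in the Oxct1 difference was not tested. Of the exonic bases of Oxct1, 12.6% are also covered by BC037032 on the other strand. The library kit does not keep strand, so reads there cannot be assigned. BC037032 was counted at 0.444 to 1.01 CPM, and its part in the Oxct1 count was not tested.

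Acat1 ran the other way from Oxct1 on DR without passing the test. Its level was 60.8, 57.3, 59.9 and 54.5 CPM in AL, 65.6, 65.3, 60.0 and 62.8 CPM in DR and 57.9, 61.1, 57.7 and 61.6 CPM in KD. The lowest DR mouse fell inside the AL range and the other 3 lay above it. DR exceeded AL by 0.13 on the log2 scale (SE 0.0491, unadjusted p = 0.0223, adjusted p = 0.191 in edgeR), and KD differed from AL by 0.04 (95% interval -0.0616 to 0.134).

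Bdh1, the first enzyme on the route from beta-hydroxybutyrate, was close to level across diets. It averaged 44.9 ± 2.19 CPM in AL, 43.5 ± 3.73 CPM in DR and 45.9 ± 0.752 CPM in KD (SD, n = 4), and 1 DR mouse, at 38.0 CPM, was below all others. The log2 difference from AL was -0.05 in DR (95% interval -0.179 to 0.0869) and 0.03 in KD (-0.0635 to 0.128). Gm15743 on the other strand covers 13.7% of its exonic bases, at 0.285 to 0.793 CPM.

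The genes whose log2 level most resembled each of the 7 over the 12 libraries, out of 11699 genes averaging 5 CPM or more, were listed as a description, up to 3 for each. For Oxct1 they were Car7 (Pearson r = 0.969), Nploc4 (0.964) and Hunk (0.957). For Slc16a1 they were Mrpl40 (0.793), Gm2694 (0.787) and Pigf (0.777), a weaker likeness than for any other of the 7. Genes close to Slc16a7 included Magt1 (0.917) and Mcl1 (0.915), and the closest to Slc16a3 were Ascc3 (0.905), Smg1 (0.867) and Gtf2h2 (0.842). Bsg was closest to Ckb (0.945), Pno1 (0.942) and Mrpl12 (0.939), Bdh1 to Syngr3 (0.935), Surf2 (0.912) and Mrps7 (0.901), and Acat1 to Spon1 (0.936), Ppib (0.928) and Vipas39 (0.923). None of the 7 was among another's closest 3. Between members, r was 0.79 for Bdh1 and Bsg, 0.68 for Slc16a1 and Bsg, 0.59 for Bdh1 and Oxct1 and -0.88 for Acat1 and Slc16a7.

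Of 7 other ketone body enzymes listed, 6 were tested in DR against AL, 5 in KD against AL and 6 in KD against DR, and 0 were called in each. Acat3, a cytosolic thiolase named after its values were seen, averaged 5.26 ± 0.44 CPM in AL, 4.20 ± 0.867 CPM in DR and 4.34 ± 0.256 CPM in KD, and a gene on the other strand covers 23.5% of its exonic bases. Aacs, which activates acetoacetate in the cytosol for lipid synthesis, averaged 31.6 ± 1.61 CPM in AL, 29.4 ± 0.309 CPM in DR and 30.2 ± 1.67 CPM in KD (SD, n = 4). Oxct2a and Oxct2b, and likewise Acat2 and Acat3, are close copies that can share reads, so their counts are uncertain.

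Of 14 other monocarboxylate carriers and their partners, 12 were tested. Of these, 0 were called in DR against AL and in KD against AL, and 1 was called lower in KD against DR. That gene, Slc16a9, was at 3.13, 2.81, 2.81 and 2.35 CPM in AL, 3.73, 3.90, 3.97 and 3.38 CPM in DR and 3.06, 2.68, 2.05 and 2.16 CPM in KD, all DR mice lying above all others (KD against DR log2 difference -0.59, SE 0.142, adjusted p = 0.0259 in edgeR). Slc16a9 in DR against AL gave 0.43 (SE 0.128, adjusted p = 0.0888). The Slc16a9 call was lost in 5 of the 8 fits that left out a library, with adjusted p up to 0.0919, and genes on the other strand cover 23.5% of its exonic bases. Emb, the partner of MCT2, averaged 24.4 ± 1.73 CPM in AL, 25.5 ± 1.6 CPM in DR and 24.5 ± 1.93 CPM in KD.

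Among 9 genes of lactate and pyruvate handling, 0 were called in DR against AL and in KD against AL in edgeR. In KD against DR 1 was called, Ldha, which was higher in KD. Without AL replicate 3, Ldha was called in DR against AL as well, lower in DR by 0.19 on the log2 scale (adjusted p = 0.0448). Ldha, the lactate dehydrogenase subunit of glycolytic tissue, was at 151, 140, 119.8 and 143 CPM in AL, 131, 119.5, 127 and 129 CPM in DR and 150.2, 149, 145 and 157 CPM in KD. All KD mice lay above all DR mice, and the AL mice overlapped both (KD against DR log2 difference 0.25, SE 0.0437, adjusted p = 0.00386, edgeR). Ldhb, the subunit of oxidative tissue, averaged 351 ± 16.3 CPM in AL, 367 ± 19.8 CPM in DR and 359 ± 10.4 CPM in KD. The 7 citric acid cycle genes that use or supply succinyl-CoA or take up acetyl-CoA gave 0 calls in each comparison, with log2 differences between -0.0986 and 0.123. In DR against AL 1 of them, Cs, was lower with an unadjusted p under 0.05 in edgeR, as had 18% of all genes in either direction. Cs, named after its values were seen, averaged 214 ± 4.09 CPM in AL, 200 ± 5.16 in DR and 213 ± 7.2 in KD. In KD against DR 2 of the list were higher at that level, where 18.7% of all genes passed it.

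Of 11 genes for PPAR alpha, the fasting-responsive nuclear receptor, and its targets, 10 were tested. In DR against AL 1 rose, Angptl4, an inhibitor of lipoprotein lipase, from 2.21 ± 0.625 to 5.95 ± 0.451 CPM (SD, n = 4, log2 difference 1.43, adjusted p = 0.000506, edgeR). In KD against AL 0 of 10 were called in edgeR, and Pdk4, lower in KD, was called only in 1 of 14 alternatives, without a filter on low counts (adjusted p = 0.0139). In KD against DR 2 were called lower in edgeR, Angptl4 and Pdk4, the kinase that shuts off pyruvate dehydrogenase. Angptl4 averaged 2.65 ± 0.469 CPM in KD (log2 difference -1.17, edgeR adjusted p = 0.000135). Pdk4 averaged 13.3 ± 2.06 CPM in DR and 8.92 ± 1.21 CPM in KD (log2 difference -0.57, edgeR adjusted p = 0.00802, and 0.0514 with all 12 libraries in 1 fit). The comparisons with AL share the AL mice, and those with DR the DR mice.

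**Figure D4:**
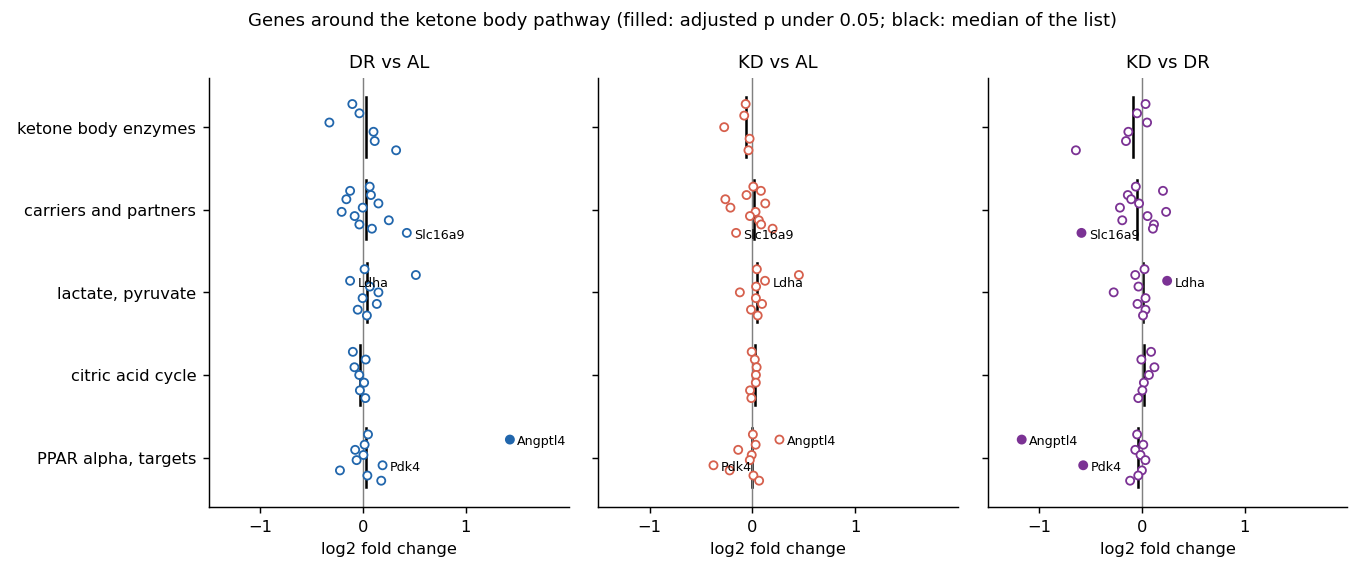
Log2 fold change (horizontal axes) of each tested gene of the 5 lists around the pathway in the 3 comparisons; filled points have an adjusted p under 0.05 and black bars are list medians. Angptl4 lies at 1.43 in DR against AL and at -1.17 in KD against DR, and the citric acid cycle genes lie between -0.0986 and 0.123.

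The remaining marker lists give the state of the libraries in which the 7 genes were read. Between KD and AL, 0 markers of any of the 10 lists were called in the edgeR fit. The other markers were read in this fit only, and Slc2a1 was called without a filter, as above. All 5 erythroid genes had an unadjusted p under 0.05 there and a median log2 difference of -0.466. The choroid plexus gene Ttr averaged 3.41 ± 3.24 CPM in KD and 0.756 ± 0.483 CPM in AL. Of the 6 choroid plexus genes tested, 2 were higher and 4 lower in KD, with a median log2 difference of -0.14. Among the lower, Otx2 differed by -0.235 (unadjusted p = 0.0053, edgeR). In DR against AL 2 endothelial markers (Itm2a, Tie1) fell, and 0 of oligodendrocytes, granule cells, microglia, choroid plexus, meningeal fibroblasts, erythroid cells and the nuclei were called. The erythroid sum was 194, 494, 237 and 176 CPM in the DR mice and 275 to 423 CPM in the AL mice. DR replicate 2 thus lay above all AL mice and the other DR mice below them. In KD against DR, markers called higher were Itm2a and Tie1 of endothelium, Aqp4 and Hopx of astrocytes, Mag of oligodendrocytes, Car8 of Purkinje cells, Fat2 of granule cells and Ttr, and Cbln3 of granule cells was lower. The oligodendrocyte sum was 1911 ± 214 CPM in AL, 1841 ± 205 CPM in DR and 1946 ± 49.7 CPM in KD, with Mbp at 61.9% of it, and Bsg had a Pearson r of -0.82 (Spearman -0.82) with it over the 12 libraries, given as a description. The part of these cell types in the differences of the 7 genes was not tested.

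**Figure D5:**
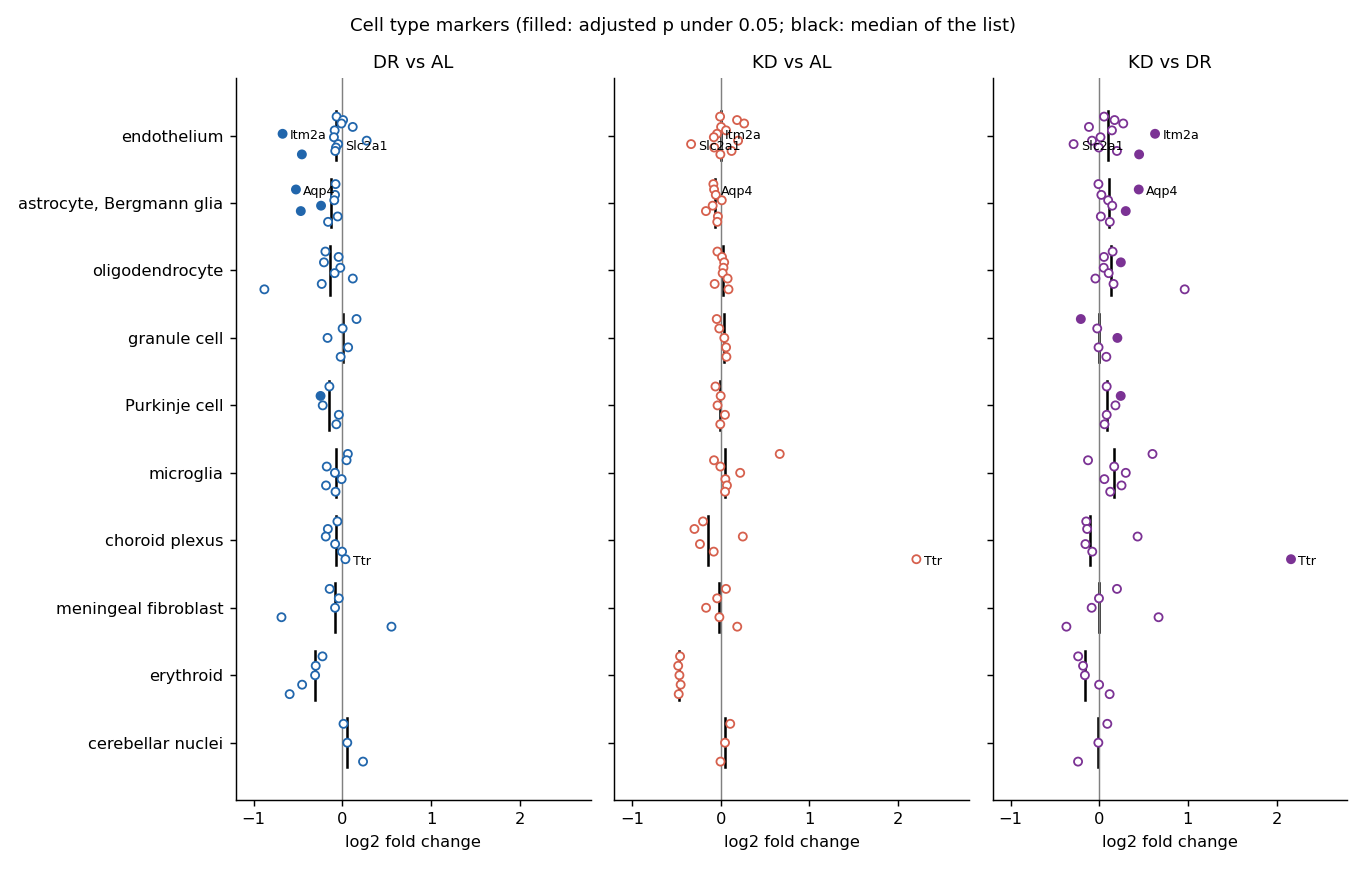
Log2 fold change (horizontal axes) of cell type markers by list in the 3 comparisons; filled points have an adjusted p under 0.05 and black bars are list medians. In KD against AL no point is filled and the endothelial median is near 0. In DR against AL the medians of several lists lie below 0, at -0.126 for astrocytes, -0.146 for Purkinje cells, -0.139 for oligodendrocytes and -0.307 for erythroid genes. In the erythroid sum DR replicate 2 lay above all AL mice and the other DR mice below them.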

How the data were processed

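Poly(A) RNA libraries were made with a kit that does not keep strand. Per the labels and the study's methods, the authors trimmed reads with Trimmomatic (0.39), aligned them to GRCm38.p6 with STAR (2.7.0f) and deposited raw gene counts from featureCounts (Subread 1.6.4). Whether the counting used strand is not given in the sources used here. Exonic lengths were the gene length column of the same table, and coding lengths came from the gene annotation. Symbols were found for 54723 of 54752 genes. Depth was 31712084 to 40798644 counts per library.

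For every comparison, the 8 libraries of the diets concerned were fitted with edgeR 4.0.16 in R 4.3.3: filterByExpr (minimum count 10, minimum total 15), TMM scaling, the quasi-likelihood test and Benjamini-Hochberg adjustment over all genes tested, with a threshold of 0.05. CPM used TMM factors over all 12 libraries. Fits were tested on simulated data. Groups came from the treatment label, and replicate numbers follow accession order and pair nothing. No 2 libraries of a diet were repeats (18 pairs compared). Each library is 1 mouse, so p-values set the difference between diets against the spread between mice. The edgeR test estimates that spread for each gene with help from all genes. The 7 genes, the pathway lists and the markers were chosen with earlier results of these data known. All 7 genes were named, with list genes that passed the test, Aacs, Emb, Ldha and Ldhb for their role and the 3 genes most like each member. Some genes are not reported here and were left out of the lists, figures and list counts. Slc2a1, Ttr and the overlapping genes were named after their values were seen. Alternatives were DESeq2 1.42.0, RLE and library size scaling, other filters, 1 fit of 12 libraries, leaving out each library and coding length.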

Additional observations from a re-analysis of the deposited data

Results flagged for a closer look

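In 1 of 42 groups of 4 mice examined (14 genes in 3 diets), a single mouse stood apart from the rest: Aacs in KD replicate 4 was at 32.7 CPM, with the other 3 KD mice at 29.2 to 29.6 CPM, a gap of 0.891 of the range, past Dixon's critical value for groups of 4. Chance flags about 1 in 20 such groups. No mouse was flagged for any of the 7 genes.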

How the results depend on the processing

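Of 289 repeats of the 21 fold changes (7 genes in 3 comparisons), 260 kept direction and side of the threshold, 8 gained a call, 9 lost one and 12 changed sign, the last in 5 of the 21. In DR against AL the number of the 7 genes called went from 0 to 1 (Oxct1) with DESeq2, without a filter and with all 12 libraries fitted together, and from 0 to 1 when a library was left out. Genes called in all were 1012 with DESeq2, 1258 without a filter and 235 to 712 with a library left out. In KD against AL 1 of the 7 (Slc16a1) was called with DESeq2 and without a filter, and genes in all were 10, 118 and 0 to 6. In KD against DR 0 were called with library size scaling and 0 to 1 with a library left out, and genes in all were 1503 without a filter and 467 to 946 with a library left out; the 1 called without a filter or without DR replicate 2 was Slc16a1, not Oxct1. With library size scaling the share of calls that were higher moved from 43.2% to 57% in DR against AL and from 49.2% to 37.9% in KD against DR. The cause was not tested.

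Signs changed for Slc16a7 in KD against AL (0.000324 with DESeq2, 1.18e-05 with RLE scaling, 0.000531 without a filter, 4.95e-05 with a mean above 10 CPM, and -0.0348 to 0.0281 with a library left out), and with a library left out for Slc16a3 in KD against AL (-0.332 to 0.0660), Bsg in DR against AL (-0.0250 to 0.122) and KD against DR (-0.0379 to 0.109), Bdh1 in DR against AL (-0.0704 to 0.0126) and Slc2a1 in DR against AL (-0.133 to 0.0405). Fold changes of the genes outside the 7 were repeated by choices made after seeing the data. Per kb of coding length, levels were 168 for Bsg, 143 for Oxct1, 47.5 for Acat1, 38.4 for Bdh1, 22.2 for Slc16a1, 19.1 for Slc16a7 and 0.446 for Slc16a3, with means in the same order but only 11 of the 12 libraries in it. No paired analysis was possible because the labels give no replicate numbers. With 4 mice a diet the printed intervals set what could be resolved, and Slc16a3 was limited by its 15 to 38 counts.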

Other observations

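Within AL and within DR, Bsg and the summed oligodendrocyte markers took opposite pairs of mice. Mbp made up 61.9% of that sum, and Mbp, Mobp, Mag and Cldn11 split the mice this way in both diets while Cnp, Mog, Mal and Opalin did not. Replicates 1 and 2 were at 208 and 212 CPM of Bsg in AL and 207 and 227 CPM in DR, with marker sums of 1800 and 1664 CPM in AL and 1692 and 1646 CPM in DR. Replicates 3 and 4 were at 168 and 171 CPM in AL and 166 and 187 CPM in DR, with sums of 2077 and 2102 CPM in AL and 2070 and 1956 CPM in DR. The 4 KD mice had 195 to 210 CPM of Bsg and sums of 1872 to 1977 CPM. The DR mice with Slc16a1 at 34.1 and 37.4 CPM were replicates 1 and 2. Bdh1 split the mice as Bsg did, with replicates 1 and 2 at 47.03 and 46.53 CPM in AL and 45.82 and 45.71 CPM in DR. Replicates 3 and 4 of Bdh1 were at 43.16 and 42.85 CPM in AL and 37.96 and 44.47 CPM in DR. Replicate numbers follow accession order, no batch is given in the labels, and the pairs were noticed after the values were seen; the difference was not tested.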
